A study of Homo sapiens with 12 samples.

Results

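The enzymes of lower glycolysis were followed at the transcript level in Huh7 cells treated with Molidustat. They are the 9 genes that code for the steps from triose phosphate to pyruvate, with the isozymes of the enolase and pyruvate kinase steps: TPI1, GAPDH, PGK1, PGAM1, ENO1, ENO2, ENO3, PKM and PKLR. The members were chosen by name from the pathway, matched by Ensembl identifier, and make up 9 of the 60666 genes listed in each library. Huh7 is an established human hepatocellular carcinoma line, so a single line stands for liver cells here. Molidustat blocks prolyl hydroxylases, the oxygen-dependent enzymes through which HIF-α subunits are degraded. The 4 groups were Huh7 cells given DMSO alone for 24 h, 25 µM Molidustat for 24 h, DMSO alone for 48 h, and 25 µM Molidustat for 48 h, with 3 libraries each. All 12 libraries were prepared from total RNA with a kit for 3′ ends of transcripts, and the values are counts of reads per gene. Replicates are called biological in the paper and triplicate extractions of RNA in the study's record, so p-values measure the spread between these samples, which may be technical in part. Because RNA of a whole culture was measured, fewer cells of a type and less RNA per cell cannot be told apart.

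In lower glycolysis, triose phosphates are oxidized and turned into pyruvate, with ATP made at the PGK and pyruvate kinase steps and NADH made by GAPDH. Several of these genes are textbook targets of HIF, which binds short elements with the core ACGTG or GCGTG, and their proteins are abundant in tumor cells. Enolase and pyruvate kinase exist as isozymes with a tissue pattern: ENO1 is widespread, ENO2 is known from neurons and ENO3 from muscle, whereas PKM serves most tissues and PKLR serves liver and red cells.

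The libraries held between 1499273 and 9179389 counts on genes. One library stood apart. DMSO 48 h replicate 2 was the smallest, reads outside annotated features made up 50.4% of those listed for it and 17.1 to 25.6% for the other 11, and its Pearson correlation with the others over log2 values was 0.707 to 0.782. Its TMM scaling factor was 0.629, whereas the others lay between 1.01 and 1.08. Values at 48 h are therefore also given without this library where its removal changed a call or moved them by more than 1.5 times, and it also entered the estimate of the spread used at 24 h. The liver character of the cells was visible in all libraries. All 8 hepatocyte and hepatoma markers were counted, with none at 0, and AFP was the most abundant. In CPM (counts scaled to 1e+06 per library, on TMM-scaled library sizes) they summed to 12023, 12836 and 15068 with DMSO and 17661, 17186 and 22014 with Molidustat at 24 h. At 48 h the sums were 16254, 8583 and 15848 CPM with DMSO and 24104, 22444 and 26748 with Molidustat, so that the sum was higher in every treated library at both times. Their median log2 fold change was 0.42 at 24 h and 1.04 at 48 h (0.69 without DMSO 48 h replicate 2), and edgeR called 0 of 8, with 1 at an unadjusted p under 0.05 at 24 h and 6 at 48 h. Of these, 1 and 5 were upward, against 3.73% and 4.53% of all genes tested. Without that library 1 of 8, the iron carrier TF, was called at each time (background 0.728 and 0.315%). The part of this shift in the enzyme values was not tested. Of 5 further HIF targets read as a check of the treatment, 4 could be tested and 1 was called at each time (background 0.231 and 0.21% of all genes tested). BNIP3, a mitophagy receptor and HIF target, rose by 2.81 ± 0.34 (SE) on the log2 scale at 24 h and by 2.68 ± 0.34 at 48 h (edgeR, adjusted p = 0.000977 and 0.00149). NDRG1 was at 2.52 and 2.20 with the groups apart, as in 7.26% and 9.96% of all genes tested (edgeR, adjusted p = 0.135 and 0.178). The groups of EGLN3, at 1.05 and 0.63, and of ANKRD37, at 1.43 and 1.62, overlapped (edgeR, adjusted p from 0.687 to 0.999). In the fit without DMSO 48 h replicate 2, NDRG1 was called at 24 h (edgeR, adjusted p = 0.0265) and EGLN3 was at 1.71 at 48 h. CA9 had too few counts to test with all libraries. It held 0, 0 and 0 CPM with DMSO and 0.359, 0.85 and 1.73 with Molidustat at 24 h, and its groups overlapped at 48 h. In the fit without that library its 48 h value was 3.02 and it was called at neither time (edgeR, adjusted p = 0.487 and 0.872).

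Of the 9 enzymes, 8 passed the filter on low counts and PKLR, with 43 counts over all libraries, did not. A gene was called when the fold change exceeded 1 on the log2 scale in either direction and its Benjamini-Hochberg adjusted p from the quasi-likelihood test of edgeR was under 0.05. By this rule 1 of the 8 tested enzymes, PGK1, rose at 24 h, against a background of 0.231% of all 14274 genes tested, and the same enzyme alone rose at 48 h, against 0.21%. ENO2, with 1 count summed over the 6 DMSO libraries, passed the filter only through its Molidustat libraries, so its direction was fixed by the filter and it is left out of the next counts. For 6 of the other 7, all but ENO3, every Molidustat library lay above every DMSO library at both time points. Over all genes tested this held for 7.26% at 24 h and 9.96% at 48 h. The same 6 enzymes had an unadjusted p under 0.05 upward at each time point, as had 3.73% of all genes at 24 h and 4.53% at 48 h. The median log2 fold change of the 7 was 1.60 at 24 h and 1.43 at 48 h, whereas the median of all genes tested was 0.02 and 0.01. Without DMSO 48 h replicate 2, 6 of the 7 enzymes were called at 24 h (background 0.728%) and 3 at 48 h (background 0.315%): TPI1, PGK1 and ENO1. DESeq2, the tool the study used, called 6 of the 7 at each time point, with 0.932% and 1.22% of all genes called higher.

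**Figure D1:**
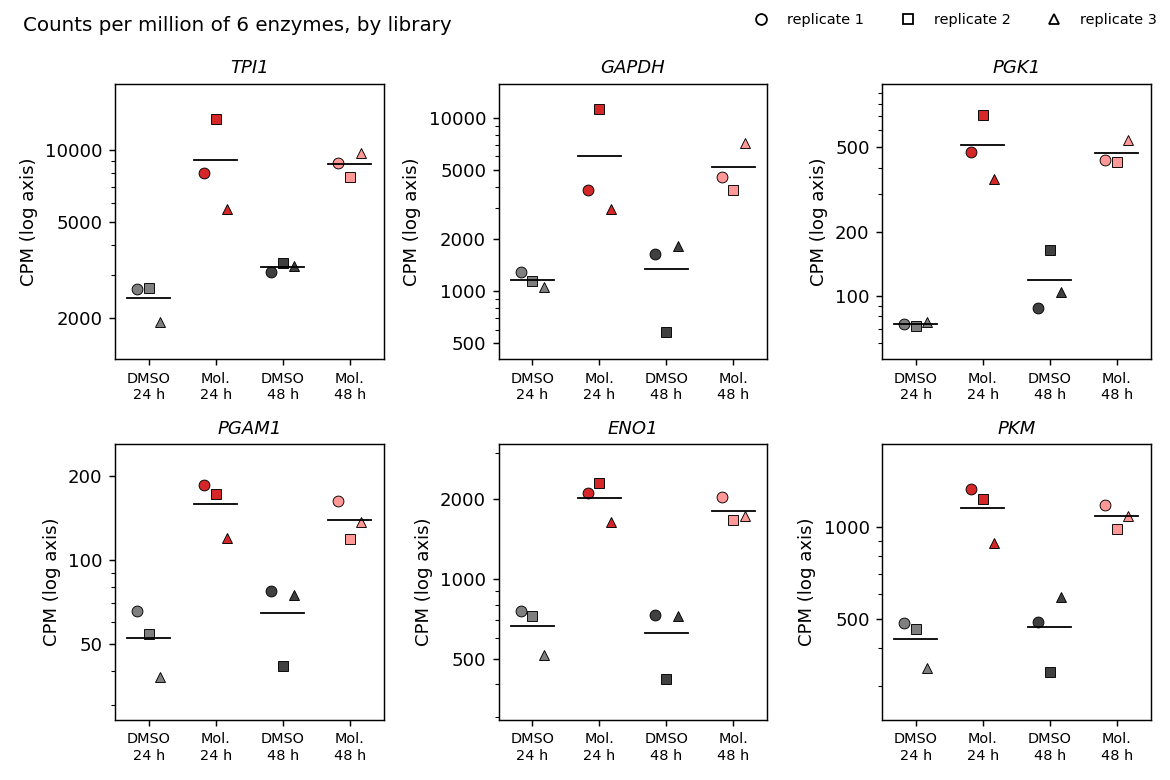
CPM on TMM-scaled library sizes (log axis) of TPI1, GAPDH, PGK1, PGAM1, ENO1 and PKM in the 12 libraries, with DMSO and Molidustat (Mol.) groups at 24 h and 48 h on the horizontal axis. Each symbol is 1 library, shaped by replicate number, and the bar is the mean of 3. In all 6 panels the Molidustat libraries lie above the DMSO libraries of the same time point, and GAPDH of Molidustat 24 h replicate 2 (11259 CPM) is far above the other 2 of its group.

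The first enzyme, TPI1 (ENSG00000111669; GRCh38, chromosome 12, 6867119 to 6870948, plus strand), interconverts the 2 triose phosphates that aldolase releases. It had the most counts of the 9, 358242 over all libraries. In CPM, the DMSO libraries at 24 h held 2643, 2650 and 1921, and the Molidustat libraries held 8053, 13500 and 5674. At 48 h the DMSO libraries held 3114, 3388 and 3297 CPM and the Molidustat libraries 8851, 7722 and 9756. The groups did not overlap at either time point, and the lowest Molidustat library was above the highest DMSO library by more than the range of the DMSO group. The log2 fold change was 1.92 ± 0.39 (SE) at 24 h and 1.43 ± 0.38 at 48 h, and neither was called (edgeR, adjusted p = 0.0602 and 0.186). Without DMSO 48 h replicate 2 the values were 1.93 and 1.44, and both were called (edgeR, adjusted p = 0.000525 and 0.0481). TPI1 was thus the member whose 48 h value moved least when that library was removed.

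GAPDH (ENSG00000111640; chromosome 12, 6534512 to 6538374, plus strand) oxidizes glyceraldehyde 3-phosphate with reduction of NAD+, and is widely used as a reference gene. The DMSO libraries at 24 h held 1286, 1147 and 1050 CPM, and the Molidustat libraries held 3825, 11259 and 2992. The 48 h values were 1635, 579 and 1833 CPM with DMSO and 4547, 3850 and 7134 with Molidustat. Replicate 2 was the high library of the Molidustat group at 24 h and the low library of the DMSO group at 48 h, yet the groups did not overlap. The log2 fold change of 2.38 ± 0.54 at 24 h and of 1.94 ± 0.53 at 48 h was not called (edgeR, adjusted p = 0.122 and 0.191). Without DMSO 48 h replicate 2 the 24 h value of 2.39 was called (edgeR, adjusted p = 0.0026). Leaving out Molidustat 24 h replicate 2 lowered the 24 h value to 1.55, and leaving out DMSO 48 h replicate 2 lowered the 48 h value to 1.56. GAPDH has many processed copies in the genome: 65 are listed, 34 had counts, and together they held 2.18 to 3.31% of the GAPDH count of a library. Reads aligned to several places are listed apart from the gene counts, so how many reads of GAPDH were lost to its copies is not known.

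For comparison, the ribosomal protein gene RPL13A, which the study used as housekeeping gene in its RT-qPCR, was included after its values were seen. At 24 h it held 109.5, 99.4 and 155.8 CPM with DMSO and 102.2, 97.1 and 121.3 with Molidustat. At 48 h it held 120.4, 66.0 and 140.9 CPM with DMSO and 128.3, 175.4 and 152.6 with Molidustat. The groups overlapped at both time points, and the low value at 48 h was again DMSO replicate 2. The count of RPL13A per GAPDH count was 0.107 ± 0.036 (SD, n = 3) with DMSO and 0.0253 ± 0.0160 with Molidustat at 24 h, and 0.0882 ± 0.0224 and 0.0317 ± 0.0125 at 48 h. These groups were apart at both times (exact two-sided permutation test, p = 0.1, the smallest that 3 against 3 can give; adjusted p = 0.3 over 24 ratio tests).

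PGK1 (ENSG00000102144; chromosome X, 77910739 to 78129295, plus strand) codes for the enzyme of the first ATP-forming step. Its promoter is shown because PGK1 was the only member called at both time points and holds 3 matches to ACGTG, more than any other member. RefSeq promoters (GRCh38.p14; 250 bases before to 50 after the start) were found for all 9 genes, 12 promoters in all, and were searched on both strands for ACGTG and GCGTG, the letters of the HIF core. In the windows below, of 30 bases each and read 5′ to 3′ on the gene's strand, capitals mark the match. CACGT is ACGTG and CACGC is GCGTG on the other strand.
PGK1 at 202 bases before the start, chrX:78104034-78104063, plus strand: gcggcgtgccggACGTGacaaacggaagcc
PGK1 at 183 bases before the start, chrX:78104053-78104082, plus strand: aaacggaagccgCACGTctcactagtaccc
PGK1 at 28 bases after the start, chrX:78104264-78104293, plus strand: gcctccggagcgCACGTcggcagtcggctc
The first 2 windows overlap, and the first also holds a GCGTG match, seen in lower case, that starts 211 bases before the start. At least 1 ACGTG was present in 21.4% of 35116 RefSeq promoters of the same length, at least 2 in 8.82%, GCGTG in 36.5%, and 48.5% held either. Among the members, 5 of 12 promoters held ACGTG and 8 of 12 held either. Besides PGK1, ACGTG had 2 overlapping matches each in GAPDH and PKLR and 1 each in TPI1 and ENO2. GCGTG had 2 matches each in ENO1 and ENO3 and 1 each in TPI1 and PKM. Matches were thus also present in ENO3 and PKLR, whose groups overlapped at both times. A match of this length is a description of the letters and not a mapped site.

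The counts of PGK1 were uniform in the DMSO libraries at 24 h, with 74.0, 72.0 and 75.2 CPM, and the Molidustat libraries held 476, 710 and 353 CPM. After 48 h the DMSO libraries held 87.8, 165 and 104 CPM and the Molidustat libraries 436, 427 and 541 CPM. No Molidustat library came near a DMSO library, although DMSO 48 h replicate 2 was the highest of the 6 controls. PGK1 rose with a log2 fold change of 2.80 ± 0.36 at 24 h, or 6.96-fold, and of 1.99 ± 0.35 at 48 h, or 3.96-fold (edgeR, adjusted p = 0.00112 and 0.0235). Once DMSO 48 h replicate 2 was set aside, the 48 h value was 2.27 (edgeR, adjusted p = 0.000975). The call at 24 h was made in all 12 fits that left out 1 library. The call at 48 h was made in 9 of 12, and it was lost without Molidustat 48 h replicate 1, 2 or 3 (log2 fold change 2.05, 2.04 and 1.88; edgeR, adjusted p = 0.0745, 0.0767 and 0.134). It was also lost when each time point was fitted alone, with a log2 fold change of 1.95 (edgeR, adjusted p = 0.241).

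PGAM1 (ENSG00000171314; chromosome 10, 97426191 to 97433444, plus strand) moves the phosphate of 3-phosphoglycerate. It was the only member with neither ACGTG nor GCGTG in its promoter window. The DMSO libraries at 24 h held 65.5, 53.9 and 38.0 CPM and the Molidustat libraries 185.7, 172.1 and 119.4. The 48 h values were 77.3, 41.5 and 75.0 CPM with DMSO and 162.5, 118.8 and 136.6 with Molidustat. The groups were apart at both times. Its log2 fold change was 1.60 ± 0.34 at 24 h and 1.09 ± 0.33 at 48 h, the lowest 48 h value among the 7 enzymes whose groups were apart, and neither was called (edgeR, adjusted p = 0.0789 and 0.205). With DMSO 48 h replicate 2 removed, the 24 h value of 1.62 was called (edgeR, adjusted p = 0.00335) and the 48 h value was 0.86 (edgeR, adjusted p = 0.454).

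**Figure D2:**
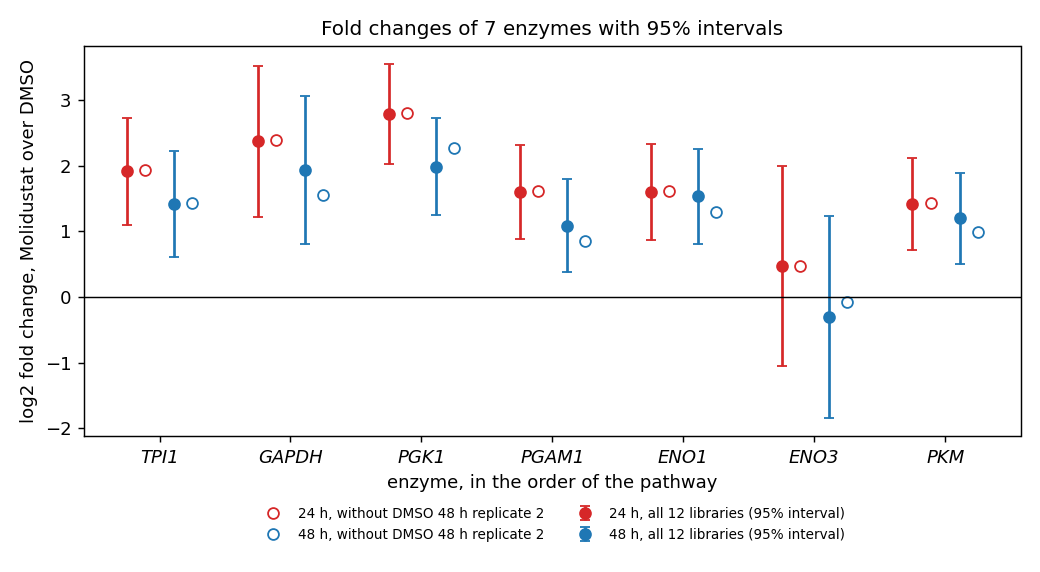
Log2 fold change of Molidustat over DMSO (vertical axis) of 7 tested enzymes in pathway order, at 24 h (red) and 48 h (blue). Filled points are edgeR estimates from all 12 libraries with 95% intervals, and open points are estimates without DMSO 48 h replicate 2. PGK1 is highest at 24 h (2.80), the intervals of ENO3 include 0 at both times, and ENO2 is left out because its fitted fold depends on the prior count.

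Enolase turns 2-phosphoglycerate into phosphoenolpyruvate, and nearly all enolase counts came from ENO1 (ENSG00000074800; chromosome 1, 8861000 to 8879190, minus strand). ENO1 held 98 to 99.6% of the enolase counts of a library. The DMSO libraries at 24 h held 755, 723 and 518 CPM of ENO1 and the Molidustat libraries 2112, 2307 and 1644. After 48 h they were 734, 419 and 723 CPM with DMSO and 2034, 1679 and 1732 with Molidustat. Every Molidustat library was above every DMSO library of either time point. The log2 fold change was 1.60 ± 0.34 at 24 h and 1.54 ± 0.34 at 48 h, the pair with the smallest difference between time points among the 8 tested enzymes, and neither was called (edgeR, adjusted p = 0.0809 and 0.0982). Without DMSO 48 h replicate 2 the values were 1.62 and 1.30, and both were called (edgeR, adjusted p = 0.000434 and 0.0225). The ENO1 promoter window had 2 matches to GCGTG and none to ACGTG.

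ENO2 (ENSG00000111674; chromosome 12, 6913745 to 6923698, plus strand), known as the neuronal isozyme, was at or near 0 in the control cells and was counted in every Molidustat library. At 24 h the DMSO libraries held 0, 0 and 0 counts and the Molidustat libraries 28, 48 and 11. At 48 h the DMSO libraries held 1, 0 and 0 counts and the Molidustat libraries 42, 4 and 55. The groups did not overlap at either time, and Molidustat 48 h replicate 2, the smallest library of its group, was the lowest of the 6 treated libraries. The 0 counts at 24 h allow up to 3 counts over the group, or 0.254 CPM, against which the 5.36 CPM of the pooled Molidustat libraries was at least 21.1-fold higher. At 48 h the ratio of pooled counts was 150, with a 95% counting interval of 26.3 to 5989. That interval and the floor cover counting error only, since the use of molecular identifiers is not stated and PCR copies may be among the counts. ENO2 was not called at either time point (edgeR, adjusted p = 0.0978 and 0.111). Its adjusted p at 24 h was 0.0319 without DMSO 48 h replicate 2 (edgeR). Since ENO2 could be tested only because it was counted in treated cells, these p-values are no independent evidence of its direction.

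As a share of enolase counts, ENO2 was 0.473, 0.251 and 0.128% in the Molidustat libraries at 24 h, and 0.461, 0.102 and 0.592% at 48 h. Among the DMSO libraries 5 were at 0 and DMSO 48 h replicate 1 was at 0.0184%. The exact 95% interval of that library, 0.000465 to 0.102%, reached the value of Molidustat 48 h replicate 2, and the 0 of 402 enolase counts in DMSO 48 h replicate 2 allows a share of up to 0.746% by the limit of 3 counts, or 0.913% by the exact 95% interval. The mean share was 0.284% ± 0.175 (SD, n = 3) at 24 h and 0.385% ± 0.254 at 48 h with Molidustat, against 0 and 0.00612% with DMSO (exact two-sided permutation test, p = 0.1 at each time, the smallest possible; adjusted p = 0.267 over 8 share tests). ENO2 was therefore a minor part of enolase transcripts also in treated cells. Its promoter window held 1 ACGTG, shown here beside the ENO1 window with the match nearest the start.
ENO2 at 118 bases before the start, chr12:6914450-6914479, plus strand: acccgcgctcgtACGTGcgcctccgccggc
ENO1 at 72 bases before the start, chr1:8878741-8878770, minus strand: ggagctgaggggGCGTGccccggaggcggg

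Because ENO2 is a neuronal marker, a list of 4 other neuron markers was read beside it. SYP, SNAP25, MAP2 and TUBB3 summed to 25.3, 24.3 and 20.9 CPM in the DMSO libraries at 24 h and 39.1, 75.9 and 16.9 with Molidustat. After 48 h the sums were 17.9, 14.9 and 20.8 CPM with DMSO and 36.0, 33.9 and 36.6 with Molidustat, with the groups apart. TUBB3, a tubulin that tumor lines also express, was the most abundant, and its mean was 12.2 CPM with DMSO and 30.9 CPM with Molidustat at 48 h. Of the 4 markers 2 could be tested and 0 were called at either time by edgeR (background 0.231 and 0.21% upward). At an unadjusted p under 0.05 there were 0 at 24 h and 1, upward, at 48 h, against 3.73 and 4.53% of all genes tested. Over all libraries SYP had 21 counts, MAP2 14, SNAP25 259 and TUBB3 1583. SNAP25 lay between 0.717 and 8.37 CPM in the 12 libraries, and its groups overlapped at both times. The part of these transcripts in the ENO2 result was not tested.

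ENO3 (ENSG00000108515; chromosome 17, 4948092 to 4957131, plus strand), the muscle isozyme, was the exception among the tested enzymes. The DMSO libraries at 24 h held 3.22, 2.7 and 4.96 CPM and the Molidustat libraries 2.15, 4.25 and 8.65. After 48 h they were 4.47, 8.52 and 5.68 CPM with DMSO and 3.60, 7.29 and 3.95 with Molidustat. The groups overlapped at both times. The log2 fold change was 0.47 with a 95% interval of -1.05 to 1.99 at 24 h and -0.30 with an interval of -1.85 to 1.24 at 48 h (edgeR, adjusted p = 0.999 and 0.91). Changes of several fold in either direction lie within these intervals. The 24 h value was -0.17 without Molidustat 24 h replicate 3, and the 48 h value was -0.07 without DMSO 48 h replicate 2. As a share of enolase counts, ENO3 was 0.581% ± 0.319 with DMSO and 0.269% ± 0.224 with Molidustat at 24 h, with overlap (exact permutation test, p = 0.3; adjusted p = 0.6). The 48 h share was 1.13% ± 0.75 and 0.278% ± 0.136, with every Molidustat library below every DMSO library (exact permutation test, p = 0.1; adjusted p = 0.267). The DMSO mean rested on replicate 2, with 8 of 402 counts, and was 0.693% without it, and ENO1, nearly all of the denominator, was higher in every Molidustat library. The exons of ENO3 overlap those of PFN1 by 111 bases on the opposite strand. PFN1 held 94289 counts against 281 for ENO3 and the strand setting of the counting is not stated, so reads of the 2 genes may not have been told apart. Of the muscle markers, CKM and DES were at 0 in all libraries, ACTA1 had 1 count and MYH7 had 6.

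**Figure D3:**
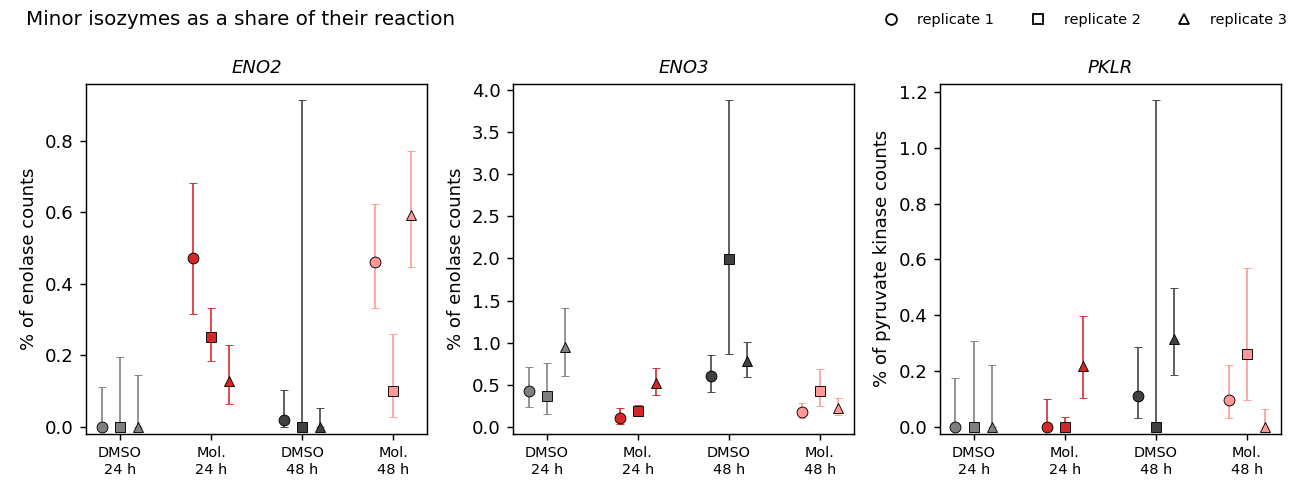
Share of ENO2 and ENO3 in enolase counts and of PKLR in pyruvate kinase counts (percent) in each of the 12 libraries, with exact 95% binomial intervals as bars; symbols give the replicate number. ENO2 lies at 0.102 to 0.592% in the 6 Molidustat libraries and at 0 to 0.0184% in the 6 DMSO libraries, and the wide bars belong to DMSO 48 h replicate 2 with 402 enolase and 313 pyruvate kinase counts.

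Pyruvate kinase makes pyruvate and ATP from phosphoenolpyruvate. PKM (ENSG00000067225; chromosome 15, 72199029 to 72231819, minus strand) gave between 99.7 and 100% of pyruvate kinase counts in every library. Its values at 24 h were 485, 461 and 345 CPM with DMSO and 1327, 1229 and 886 with Molidustat. At 48 h they were 486, 333 and 588 CPM with DMSO and 1175, 982 and 1080 with Molidustat. The groups were apart at both times. For PKM the log2 fold change was 1.42 ± 0.33 at 24 h and 1.20 ± 0.33 at 48 h, and neither was called (edgeR, adjusted p = 0.137 and 0.191). Once DMSO 48 h replicate 2 was set aside, the 24 h value of 1.43 was called (edgeR, adjusted p = 0.00226) and the 48 h value was 0.99 (edgeR, adjusted p = 0.147). Counts per gene do not separate the M1 and M2 forms of PKM, which share their 3′ end. The factors known to set this exon choice, PTBP1, HNRNPA1, HNRNPA2B1 and SRSF3, were all tested, with 0 of 4 called at either time (edgeR; 0 at an unadjusted p under 0.05). At 24 h HNRNPA2B1 held 765, 781 and 680 CPM with DMSO and 533, 499 and 676 with Molidustat, so its groups were narrowly apart. The share of all genes with this downward order at 24 h is not given here. At 48 h PTBP1 was at -0.61 and SRSF3 at -0.58 on the log2 scale, with all Molidustat libraries below all DMSO libraries, as in 8.02% of all genes tested (edgeR, adjusted p = 0.388 and 0.451). In the fit without DMSO 48 h replicate 2 they were at -0.73 and -0.34.

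PKLR (ENSG00000143627; chromosome 1, 155289293 to 155301438, minus strand), the isozyme of adult liver, was barely counted in these liver-derived cells. At 24 h it had 0, 0 and 0 counts with DMSO and 0, 0 and 10 with Molidustat. At 48 h it had 4, 0 and 18 counts with DMSO and 5, 6 and 0 with Molidustat. The counts came from a few libraries of both treatments, and no order of the groups can be read from them. The highest share of pyruvate kinase counts was 0.316% in DMSO 48 h replicate 3, with an exact 95% interval of 0.187 to 0.498%. The mean 48 h share was 0.142% ± 0.160 with DMSO (0.214% without replicate 2) and 0.119% ± 0.132 with Molidustat (exact permutation test, p = 0.8; adjusted p = 1). The ratio of pooled counts at 48 h, Molidustat to DMSO, was 0.743 with a counting interval of 0.325 to 1.60. The exons of PKLR overlap those of HCN3 by 556 bases on the opposite strand, and HCN3 itself had 49 counts. The erythroid markers, read because PKLR also serves red cells, included HBB and HBA1 at 0 and ALAS2 with 8 counts.

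Other isozymes of these reactions were close to absent. GAPDHS, PGK2 and PGAM2, the testis and muscle forms, had 0 counts in all 12 libraries. PGAM4, which lies within PGK1 on the opposite strand, had 31 counts in all and ENO4 had 13, and none of the 5 could be tested. The markers of the other cell types that a culture could hold were low as well. The 4 leukocyte markers summed to 2.53, 3.85 and 5.37 CPM with DMSO and 8.96, 7.89 and 4.81 with Molidustat at 24 h, and to 4.88, 2.13 and 5.37 with DMSO and 9.66, 10.3 and 14.7 with Molidustat at 48 h, when the groups were apart. CD14, a monocyte receptor that hepatocytes also express, was the most abundant, with 234 counts, and at 48 h it held 2.30, 0 and 3 CPM with DMSO and 7.42, 9.01 and 10.3 with Molidustat, a log2 fold change of 2.11 (edgeR, adjusted p = 0.381). The 4 endothelial markers summed to between 0 and 6.45 CPM and the 4 fibroblast markers to between 0 and 6.52. At 48 h the fibroblast sums were 3.25, 0 and 2.79 CPM with DMSO and 6.52, 3.86 and 5.45 with Molidustat, with the groups apart. The defining markers CD3E and VWF were at 0 in all libraries, PTPRC had 7 counts, and 0 genes of these lists were called at either time point by edgeR (0 at an unadjusted p under 0.05). The part of these transcripts in the enzyme values was not tested.

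Taken over a library, the 9 enzymes held 0.573, 0.539 and 0.403% of all gene counts with DMSO at 24 h and 1.65, 2.93 and 1.19% with Molidustat. At 48 h they held 0.661, 0.309 and 0.699% with DMSO and 1.80, 1.49 and 2.12% with Molidustat. No treated library came below 1.19% and no control above 0.699%. The TPI1 and GAPDH counts made up most of each sum, and these shares are of counts from 3′ reads, not divided by transcript length.

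**Figure D4:**
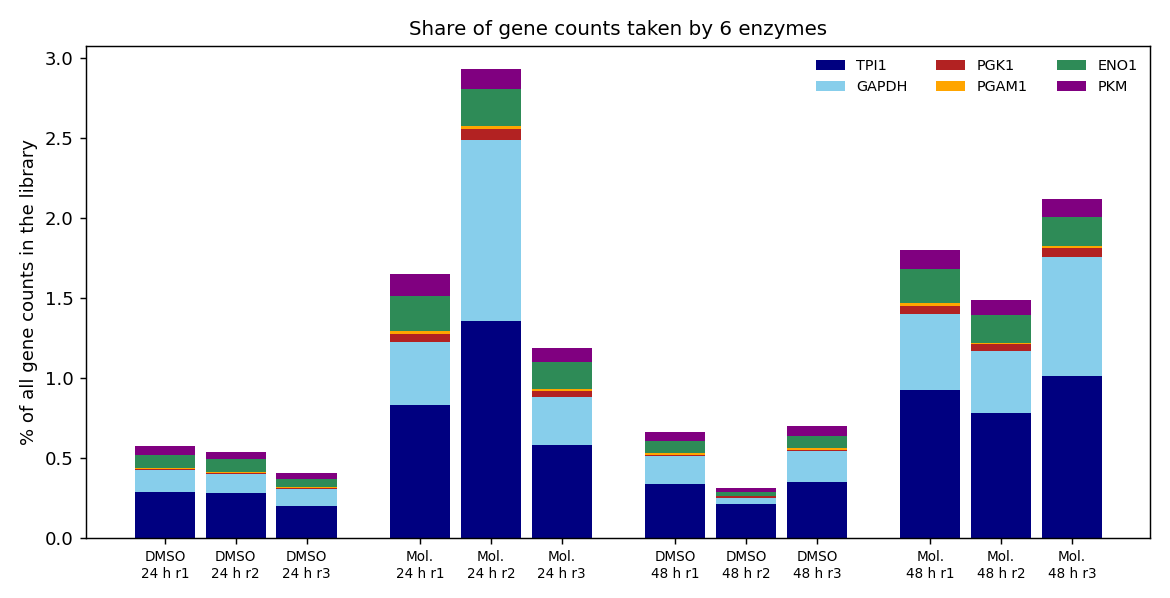
Share of all gene counts of a library (percent) that fell on TPI1, GAPDH, PGK1, PGAM1, ENO1 and PKM, stacked, for the 12 libraries by treatment (Mol., Molidustat), time and replicate (r). The bars of the 6 Molidustat libraries are taller than those of all 6 DMSO libraries, Molidustat 24 h replicate 2 is tallest, and DMSO 48 h replicate 2 is lowest.

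How the members changed relative to each other was read from ratios of their counts within a library, which need no scaling between libraries. The count of PGK1 per ENO1 count was 0.0979, 0.0997 and 0.145 with DMSO at 24 h and 0.225, 0.308 and 0.215 with Molidustat, a log2 difference of 1.13 with the groups apart (exact permutation test, p = 0.1, the smallest possible; adjusted p = 0.3 over 24 ratio tests). At 48 h the ratio was 0.120, 0.393 and 0.144 with DMSO and 0.215, 0.254 and 0.313 with Molidustat. The groups overlapped through DMSO replicate 2 alone, and the log2 difference was 0.44 with it (exact permutation test, p = 0.5; adjusted p = 0.667) and 0.97 without it. The same numerator gave a smaller difference per GAPDH count, 0.61 on the log2 scale at 24 h and -0.04 at 48 h (0.75 without DMSO 48 h replicate 2), with the groups overlapping at both times (exact permutation test, p = 0.2 and 1; adjusted p = 0.4 and 1). The overlap per GAPDH count came from Molidustat replicate 2 alone at 24 h (0.0631) and from DMSO replicate 2 alone at 48 h (0.285). Per PGAM1 count the log2 difference was 1.13 at 24 h with the groups apart and 0.87 at 48 h (1.42 without DMSO 48 h replicate 2), with overlap through that library alone (exact permutation test, p = 0.1 and 0.4, adjusted p = 0.3 and 0.64). For PKM the difference had the opposite sign. Its count per ENO1 count was 0.648 ± 0.015 with DMSO and 0.567 ± 0.054 with Molidustat at 24 h, and 0.756 ± 0.082 and 0.595 ± 0.025 at 48 h (SD, n = 3). These log2 differences of -0.20 and -0.34 had the groups apart at both times (exact permutation test, p = 0.1; adjusted p = 0.3). PGAM1 per ENO1 had means of 0.0782 and 0.0784 at 24 h, with overlapping groups (exact permutation test, p = 1). At 48 h it was 0.103 ± 0.003 with DMSO and 0.0765 ± 0.0050 with Molidustat, with the groups apart (exact permutation test, p = 0.1; adjusted p = 0.3).

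**Figure D5:**
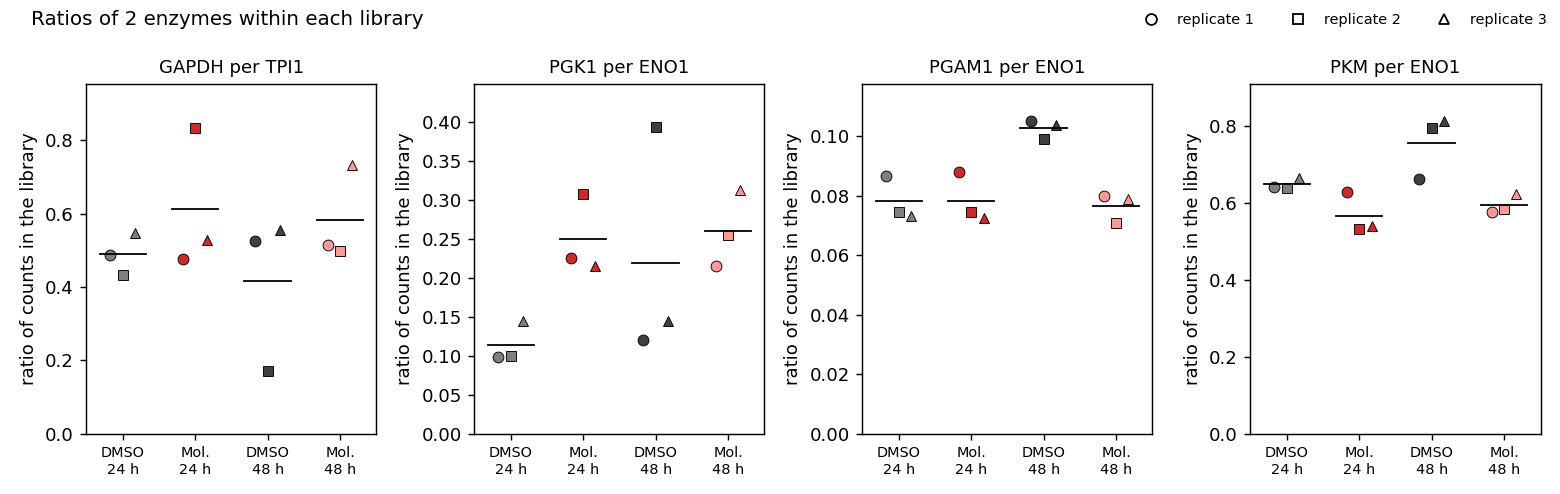
Ratio of the counts of 2 enzymes within each library (vertical axes from 0) for GAPDH per TPI1, PGK1 per ENO1, PGAM1 per ENO1 and PKM per ENO1, in DMSO and Molidustat (Mol.) libraries at 24 h and 48 h. Symbols are libraries by replicate number and bars are means of 3. GAPDH per TPI1 is high in Molidustat 24 h replicate 2 (0.834) and 48 h replicate 3 (0.731) and low in DMSO 48 h replicate 2 (0.171).

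GAPDH per TPI1 was 0.433 to 0.547 in the DMSO libraries at 24 h and 0.525, 0.171 and 0.556 at 48 h. With Molidustat it was 0.475, 0.834 and 0.527 at 24 h and 0.514, 0.499 and 0.731 at 48 h. The log2 difference was 0.29 at 24 h and 0.64 at 48 h, or 0.08 at 48 h without DMSO replicate 2, and the groups overlapped at both times (exact permutation test, p = 0.5 and 0.6; adjusted p = 0.667 and 0.686). The 2 treated libraries with the high ratio were also the 2 with the highest GAPDH level in CPM, and Molidustat 24 h replicate 2 had a low sample quality weight in limma-voom, 0.418, whereas Molidustat 48 h replicate 3 had a high one, 1.68. DMSO 48 h replicate 2 had 0.298 and the other 9 had 0.804 to 2.05. Whether library quality had a part in the GAPDH values was not tested.

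Between 24 h and 48 h, no enzyme passed the test. The difference between the 48 h and the 24 h effect (interaction) was negative for the 7 tested enzymes other than ENO2. The sign for ENO2 cannot be read, since it had 0 counts with DMSO at 24 h and its fitted fold depends on the prior count. The median of all 8, ENO2 included, was -0.50 on the log2 scale. Of the 8, 0 were called (edgeR, smallest adjusted p = 0.814, with 0 at an unadjusted p under 0.05). The interaction of PGK1 was -0.81 with a 95% interval of -1.82 to 0.20 and that of GAPDH -0.44 with an interval of -1.99 to 1.11. Without DMSO 48 h replicate 2 they were -0.54 and -0.83, the median of the 8 was -0.55, and 0 of 8 were called. Of the 14274 genes, edgeR called 0 for the interaction, with 968 at an unadjusted p under 0.05, whereas DESeq2 called 8 and limma-voom 0. In DMSO-treated cells PGK1 was at 0.68 and TPI1 at 0.44 on the log2 scale at 48 h against 24 h, with every 48 h library above every 24 h library, as in 5.75% of all genes tested (edgeR, adjusted p = 0.644 and 0.827), and 0 of 8 enzymes were called against a background of 0.00701% of all genes (0 at an unadjusted p under 0.05). The PGK1 value was 0.41 without DMSO 48 h replicate 2. In Molidustat-treated cells the 48 h to 24 h difference of the 8 enzymes had a median of -0.11 and 0 were called (edgeR, adjusted p = 1 at the smallest; 0 at an unadjusted p under 0.05), as were 0 of all genes.

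Across the 12 libraries the 6 enzymes other than ENO2 and ENO3 followed each other closely. The Pearson r of log2 CPM was 0.853 to 0.987 over their pairs, and 0.894 to 0.985 without DMSO 48 h replicate 2. The r of ENO2 with these enzymes was 0.877 to 0.935. It is no support, since ENO2 was at or near 0 in the control cells and passed the filter only through its Molidustat libraries. With ENO3 the r lay between -0.262 and 0.0509. These are descriptions, since the 12 libraries share the split into DMSO and Molidustat and the pairs share libraries and depth. ENO1, PGAM1 and PKM were most like each other, with r = 0.987 for ENO1 with PKM and for PGAM1 with PKM and 0.973 for PGAM1 with ENO1. The next gene was SLC2A1, the glucose transporter GLUT1, for PGAM1 (0.957) and PKM (0.962), and BHLHE40, a transcriptional repressor, for ENO1 (0.960). TPI1 was most like PGK1 (r = 0.973) then SLC16A3, the lactate exporter MCT4 (0.965), and ERBB2 (0.959). PGK1 was most like TPI1, then LOX (0.970), a lysyl oxidase, and SPAG4 (0.952). GAPDH was most like GAPDHP40 (0.995), one of its processed copies, CSRP2 (0.970) and a further processed copy, GAPDHP65 (0.963). ENO2 was most like SLC2A1 (0.957) and TNS1 (0.957). The genes nearest to ENO3 were B3GNT4 (0.890), AHI1 (0.883) and GGNBP2 (0.880).

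The steps on either side gave a mixed picture. In the list of upper glycolysis and lactate genes, 11 of 19 were tested, with 4 calls upward at 24 h, 1 at 48 h and 0 downward (background 0.231 and 0.21% upward, 0 and 0.021% downward). The median log2 fold change of the 11 was 1.58 at 24 h and 1.24 at 48 h. The genes called at 24 h were ALDOC, an aldolase (log2 fold change 4.50 ± 0.69), SLC16A3 (3.62 ± 0.45), LDHA, which reduces pyruvate to lactate (2.48 ± 0.38), and SLC2A1 (1.98 ± 0.36), with edgeR adjusted p of 0.00576, 0.00102, 0.00576 and 0.0226. SLC16A3 was called again at 48 h with 3.19 ± 0.43 (edgeR, adjusted p = 0.00246). LDHB at -2.22 and GPI at 1.71 were the largest not called at 24 h (edgeR, adjusted p = 0.999 and 0.872). At 48 h ALDOC was at 2.82, LDHA at 1.86, SLC2A1 at 1.65, ALDOA at 1.59 and SLC16A1, the lactate transporter MCT1, at -1.30 (edgeR, adjusted p = 0.0913, 0.061, 0.0891, 0.202 and 0.193). Without DMSO 48 h replicate 2, 12 genes of the list could be tested, with 7 upward calls at 24 h and 3 at 48 h (background 0.728 and 0.315% of 15253 genes). GPI, the isomerase of glucose 6-phosphate, was then called at 24 h (edgeR, adjusted p = 0.0207), and its 48 h value turned from -0.88 to 0.91. ALDOC at 3.11 and LDHA at 1.55 were then called at 48 h (edgeR, adjusted p = 0.0225 and 0.012), and SLC16A1 was at -0.74.

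The genes that draw on intermediates of lower glycolysis or take over its pyruvate gave 1 call. Of 13 tested from 14 listed, only PDK1, the kinase that inhibits pyruvate dehydrogenase, rose at 24 h (background 0.231%), by 3.60 ± 0.68 on the log2 scale (edgeR, adjusted p = 0.0339). At 48 h it was at 1.64 ± 0.63 (edgeR, adjusted p = 0.271), and 0 of the 13 were called (background 0.21% upward). DMSO 48 h replicate 2 held 50 CPM of PDK1 against 11.7 and 14.2 in the other 2 libraries of its group, and without it the value was 2.47 (edgeR, adjusted p = 0.0698). The median of the 13 was -0.15 at 24 h and -0.18 at 48 h, or -0.08 at 48 h without that library. After PDK1 the largest values at 24 h were GPD1L at -0.98, the mitochondrial pyruvate carrier subunit MPC1 at -0.80, pyruvate carboxylase PC at 0.44, PDHA1 at -0.40 and PHGDH, the first enzyme of serine synthesis, at -0.38 (edgeR, adjusted p from 0.872 to 0.999). At 48 h they were the serine enzyme PSPH at -0.97, GPD1L at 0.86, MPC2 at 0.67, MDH1 at 0.46 and GPD2 at -0.44 (edgeR, adjusted p from 0.374 to 0.774). The value of PSPH rested on DMSO 48 h replicate 2, with 412 CPM against 101 and 123. Without it PSPH was at -0.08, MDH1 at 0.12 and MPC2 at 0.44. Of the enzymes that run the path back to glucose, 4 of 6 were tested and 0 were called at either time by edgeR (background 0.231 and 0.21% upward). Against 3.73 and 4.53% of all genes tested, 0 had an unadjusted p under 0.05 upward at 24 h and 1 gene had it at 48 h. That gene was PCK2, the mitochondrial PEP carboxykinase, at 0.33 ± 0.44 at 24 h and 1.32 ± 0.45 at 48 h (edgeR, adjusted p = 0.999 and 0.233). FBP1 was at 0.44 and 1.72, FBP2 at -2.15 and 0.09, and G6PC3 at -0.03 and -0.07 at the 2 time points (edgeR, adjusted p from 0.669 to 0.999). Leaving out DMSO 48 h replicate 2, the 48 h values of FBP2 and G6PC3 were -0.12 and -0.15.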

How the data were processed

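RNA of 12 Huh7 samples was measured. The submitters' processing notes name bcl2fastq 2.17.1.14, cutadapt 1.9.1, STAR 2.7.9a, HTSeq 0.11.2 and DESeq2 1.26.0 with build GRCh38, and what was deposited are raw counts per gene, whole numbers that the authors did not normalize. The annotation release, strand setting and use of molecular identifiers are not given in the sources used here. Lines that name no gene were left out of library sizes: reads outside features were 17.1 to 50.4% of all those listed, reads aligned to several places 7.08 to 10.4% and ambiguous reads 1.20 to 2.60%. Names and coordinates came from GENCODE release 44 (60437 of 60666 identifiers matched), promoters from RefSeq GRCh38.p14. Replicates differed by more than sampling noise (chi-square per gene 10.9 or more in 12 pairs), so none was taken for a repeat deposit.

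The filter filterByExpr (at least 10 counts, 15 in total) kept 14274 of 28430 genes with a count. Libraries were scaled by TMM, and the quasi-likelihood test of edgeR 4.0.16 (R 4.3.3) was fitted over all 12. Benjamini-Hochberg adjustment ran over all genes tested. Standard errors were derived from the F statistic. Log2 CPM used a prior count of 2. Shares and ratios were tested with exact two-sided permutation tests (scipy 1.17.1). The scripts were tested on simulated data (seed 7).

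The members and lists were chosen with earlier results of these data known. Named were the 9 enzymes, their other isozymes and processed copies, and from each further list up to 6 genes, those called first and then those with the largest absolute log2 fold change. For likeness the 3 genes with the highest r were taken per enzyme. Some genes that these rules name are not reported here. Alternatives were DESeq2 1.42.0, limma-voom (limma 3.58.1) with sample quality weights, RLE factors, total counts, other filters, each time point alone, a replicate block, no threshold on the fold change, and each library left out. Lists, shares, ratios and correlations without DMSO 48 h replicate 2 were added after the data were seen. Figures used matplotlib 3.10.9.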

Additional observations from a re-analysis of the deposited data

How the results depend on the processing

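Fold changes of single enzymes, ENO2 included, were compared over the settings. Of 122 under other settings of all libraries, 86 stayed on the same side of the threshold, 35 passed it only under the alternative and 1 no longer did. Of 192 from fits without 1 library, 178 stayed, 10 passed it, 3 no longer did and 1 changed sign: ENO3 at 24 h was -0.17 without Molidustat 24 h replicate 3 (range without 1 library -0.17 to 0.81). Enzymes called at 24 h and 48 h, with ENO2 in the list, were 1 and 1 of 8 tested in the main fit. They numbered 7 and 7 of 8 with DESeq2 and 6 and 6 of 8 with limma-voom. With no filter on low counts they were 6 and 4 of 9, and with each time point fitted alone 6 and 0 of 7, ENO2 not tested. ENO2 was among the calls at both times with DESeq2 and with no filter, and at 48 h with limma-voom. Its calls are no independent evidence of its direction, and without it DESeq2 called 6 and 6. Calls ranged from 1 to 7 at 24 h, with ENO2 among the 7, and from 0 to 3 at 48 h without 1 library. For all genes, against 33 and 33, they were 145 and 350 with DESeq2, 64 and 278 with limma-voom, 106 and 764 with no filter, 15 and 15 with at least 10 counts in every library, and 57 and 7 with each time point alone. They ranged from 20 to 116 and from 13 to 327 without 1 library. At 48 h DESeq2 called 174 higher and 176 lower, limma-voom 244 and 34, and the fit with no filter 154 and 610, against 30 and 3. For the interaction, against 0, DESeq2 called 8 and the fit with no filter 321, and the range without 1 library was 0 to 0. For DMSO 48 h against 24 h, against 1, the counts were 46 with DESeq2, 3 with total counts, 400 with no filter, 0 with at least 10 counts in every library and 2 with limma-voom, and 1 to 2 without 1 library. For Molidustat 48 h against 24 h, against 0, they were 12 with DESeq2, 4 with no filter and 1 with limma-voom, and 0 to 4 without 1 library. The causes were not tested. The difference in PKLR share at 48 h, -0.0234 percentage points, was 0.0632 without DMSO 48 h replicate 3 and 0.0361 without Molidustat 48 h replicate 3 (range -0.0946 to 0.0632). The difference in ENO2 share was 0.190 to 0.362 at 24 h and 0.275 to 0.520 at 48 h without 1 library.

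No pairing by replicate number was seen. Deviations of same-numbered DMSO and Molidustat libraries had r between -0.0539 and 0.118, and those of differently numbered ones between -0.0984 and 0.0694. With 3 libraries a group these values cannot exclude a pairing. With the replicate block, 30 and 22 genes were called at 24 h and 48 h, and the block changed no call of an enzyme.

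Depth limits the rare isozymes. With 402 enolase counts, a share of 0 allows up to 0.746% by the limit of 3 counts, and PKLR with 43 counts gives no order of groups. With 3 libraries a group, exact tests cannot go below p = 0.1.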
